A study of Gallus gallus with 300 samples.

Results

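STMN1, TAGLN3, MAPT, TUBB3 and NEFL are 5 of the 13631 gene symbols measured in single cells of the chicken utricle, a balance organ of the inner ear. They were taken by symbol as cytoskeleton genes known from neurons, a set put together with their values in these cell groups in view, and all 5 were found in the data and passed the filter on low values. The cells were wild type, at posthatch day 7, and came from sensory epithelia peeled off the stroma with thermolysin. Per the labels' protocols, 4 to 8 epithelia were pooled per experiment, dissociated, and sorted as viable single cells into wells, with 2 independent batches of 270 cells. The 300 cells analysed here lie on 5 plates, numbered 2 to 6, and no label ties a cell to an animal or a plate to a batch. There was therefore 1 kind of tissue, no treatment and no replicate animals, so no test between cell groups was possible and plates serve only to show how far a value repeats.

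The microtubule and neurofilament network gives a neuron its axon and the shape of its growth cone. Stathmins bind free tubulin and favour microtubule disassembly, tau and related proteins hold microtubules together, and neurofilaments fill the axon. Hair cells are not neurons, but they are sensory cells with synapses onto nerve endings, and birds make new hair cells from supporting cells throughout life. ATOH1 is the transcription factor that starts the hair cell programme and is high in young hair cells, OCM encodes the calcium-binding protein oncomodulin, and GJB6 encodes a gap junction connexin of supporting cells.

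Cells with at least 1000 detected genes and 50000 counts were kept, which removed 24 of the 300 cells, and values are given as CPM, counts scaled to a total of 1000000 per cell. A hair cell was a cell with GJB6 under 1000 CPM and at least 4 of 12 hair cell markers at 10 CPM, and 60.9% of the cells kept qualified. Of these, 47 had ATOH1 at 10 CPM or more and are called ATOH1-positive. The other hair cells were split by OCM, with 44 under 1000 CPM (OCM-low), 28 between (OCM-middle) and 49 at 10000 CPM or more (OCM-high). The supporting cells were the 89 cells with GJB6 of at least 1000 CPM and fewer than 4 hair cell markers. The remaining 19 cells fitted neither class, and 13 of them had high GJB6 together with 4 or more hair cell markers. These classes are ranges of marker genes: 12 hair cells had ATOH1 between 10 and 20 CPM, 5 had it between 5 and 10 CPM, and 28 cells had GJB6 between 300 and 3000 CPM.

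The summed count of a cell lay between 62846 and 1234012, and the median cell had 395671. The median number of detected genes was 3736 in ATOH1-positive hair cells, 3092.5, 3573 and 3327 in OCM-low, OCM-middle and OCM-high hair cells, and 1792 in supporting cells. After each cell was thinned to 50000 counts these medians were 3165, 2631.5, 2921, 2831 and 1578, so thinning matched the totals and not the number of genes. Libraries carried no molecular identifiers, so reads are not independent molecules and every interval below covers counting error only. Supporting cells held a median of 9 of 10 supporting cell markers, a list that includes GJB6, and ATOH1-positive hair cells a median of 2. Of markers of other cell types, 2 endothelial and 2 immune genes were found in supporting cells, with mean summed levels of 105.7 and 185.1 CPM, and 1 stromal gene, with 1.50 CPM; their part in the results was not tested. The members were proposed from values of these same cell groups, so all comparisons of the 5 genes between the groups are descriptions.

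The 5 genes did not share 1 pattern. STMN1 and TAGLN3 were highest in ATOH1-positive hair cells, TUBB3 was found in hair cells and at 0 counts in supporting cells, NEFL was highest in supporting cells, and MAPT was low everywhere. Over all cells kept, STMN1 reached 10 CPM in 53.3%, TUBB3 in 41 cells, NEFL in 27, TAGLN3 in 17 and MAPT in 13. The name neuron-like rests on the genes' known roles: NEFM, the partner of NEFL in neurofilaments, reached 10 CPM in 1 cell, and so did the growth cone protein gene GAP43. Some other listed neuron markers were wider spread, with ELAVL4 in 61 cells, RBFOX3 in 60, POU4F1 in 54, SNAP25 in 49 and MYT1L in 29. NTRK2 and SCN9A reached 10 CPM in 7 cells each and NTRK3 in 5. CPM are not corrected for gene length, so levels are compared between cell groups and not between genes.

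**Figure D1:**
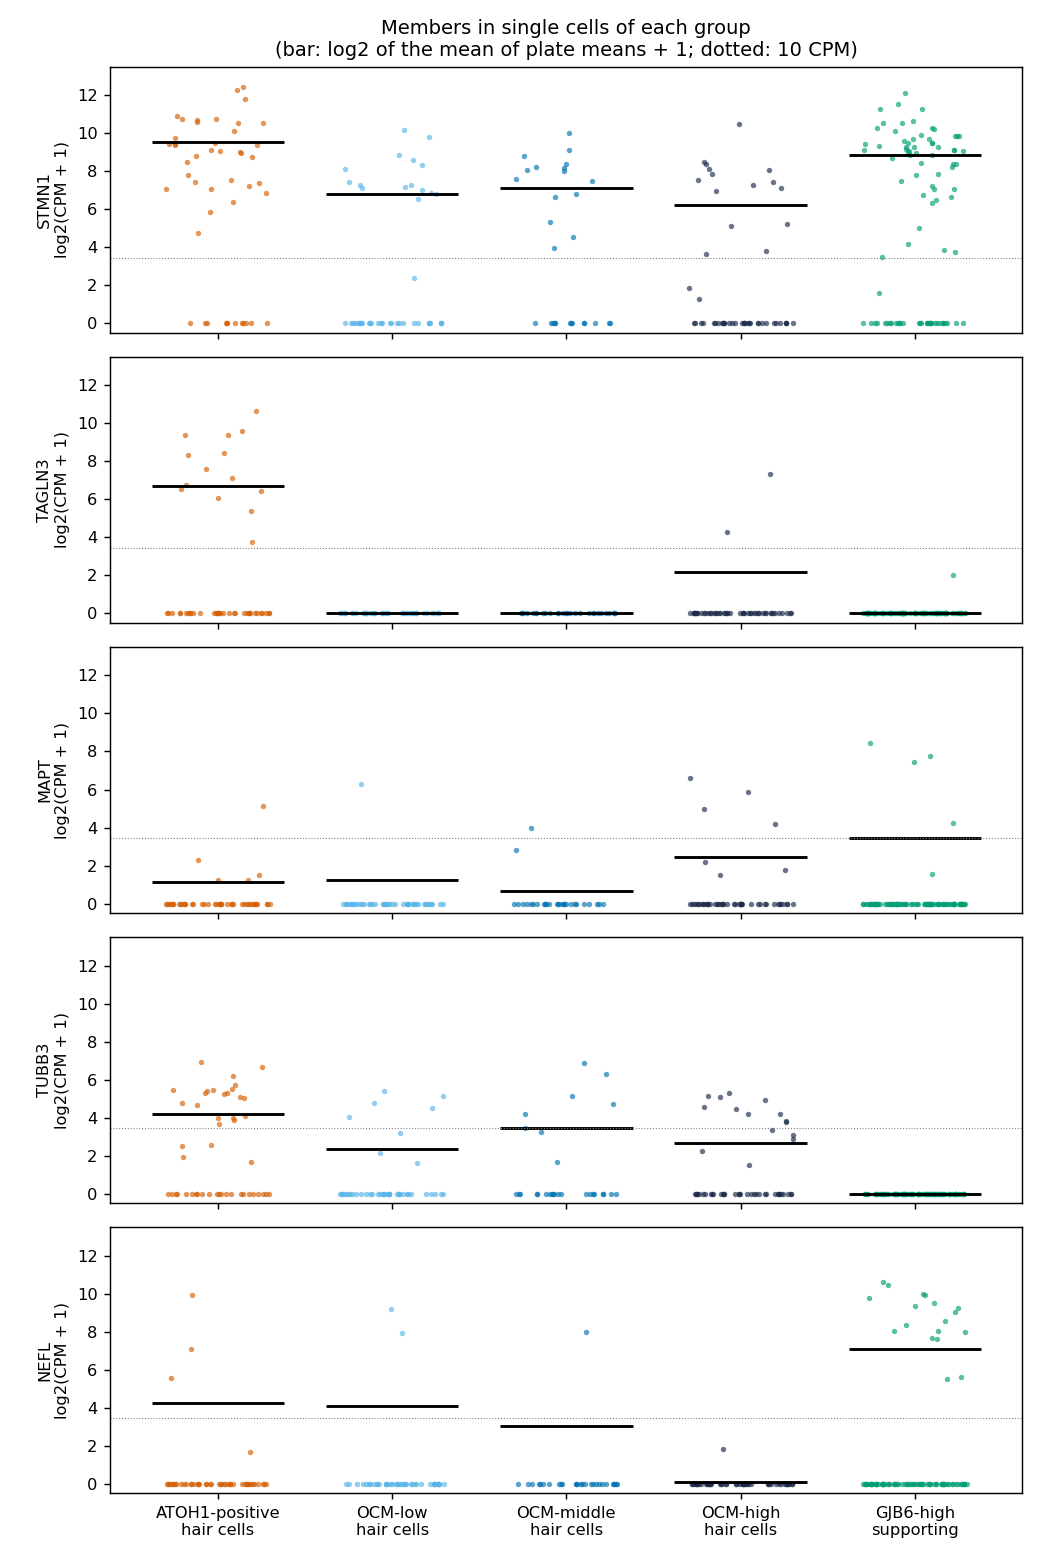
Level of each of the 5 genes in single cells, as log2(CPM + 1) on the vertical axis, for the 5 cell groups on the horizontal axis. Each point is 1 cell, the bar is the log2 of the mean of plate means plus 1, and the dotted line marks 10 CPM; the STMN1 and TAGLN3 bars are highest in ATOH1-positive hair cells and the NEFL bar in supporting cells.

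STMN1, the gene of stathmin, which sequesters tubulin, was the most widely found of the 5. In ATOH1-positive hair cells its plate means were 388, 736, 513, 1075 and 1039.95 CPM on plates 2 to 6, a mean of 750.3 ± 307 CPM (SD, n = 5 plates). In ATOH1-negative hair cells they were 94.7, 108.3, 56.1, 65.4 and 201.3 CPM, a mean of 105.2 ± 57.8 CPM. Every plate of the former was above every plate of the latter, and the log2 ratio was 2.82 ± 0.77 (SD over 5 plates), with single plates from 2.02 to 4.02. STMN1 reached 10 CPM in 35 of 47 ATOH1-positive cells (74.5%, exact binomial 95% interval 59.7 to 86.1%) and in 37.2% (28.6 to 46.4%) of ATOH1-negative cells. After thinning to 50000 counts, 74.5% of ATOH1-positive cells had at least 1 count of STMN1 and 61.8% of supporting cells.

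Supporting cells held the next highest STMN1 level. Their plate means were 131.4, 628, 496, 543 and 494 CPM, a mean of 459 ± 190.8 CPM, and 56 of 89 cells (62.9%, 52.03 to 72.9%) reached 10 CPM. With cells of at least 2000 genes and 100000 counts only, the order of the shares turned, at 78.9% of supporting and 75% of ATOH1-positive cells. Plate 2 was low there, and the range of the supporting cells overlapped that of the ATOH1-positive hair cells, although the latter were higher on each of the 5 plates by a log2 ratio of 0.71 ± 0.63. ATOH1-negative hair cells were lower than supporting cells on all 5 plates, with a log2 ratio of -2.11 ± 1.16, yet their highest plate was above the lowest supporting plate.

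Among ATOH1-negative hair cells STMN1 was not separated by OCM level. The OCM-middle cells had 32.8, 223.3, 147.4, 43.2 and 247.7 CPM on plates 2 to 6, the OCM-low cells 162.3, 89.6, 35.9, 77.8 and 194.8 CPM, and the OCM-high cells 47.8, 54.4, 31.2, 68.8 and 172.8 CPM. All these ranges overlapped. OCM-low cells were higher than OCM-high cells on each plate, by a log2 ratio of 0.57 ± 0.68. STMN1 was at 10 CPM in 15 of 44, 15 of 28 and 15 of 49 cells of the OCM-low, OCM-middle and OCM-high groups. Single cells weighed on these values. In the OCM-high group the mean over cells was 76.6 CPM with its highest cell and 48.7 CPM without it. In the OCM-low group it was 107.3 and 82.6 CPM, and in the OCM-middle group 146.7 and 114.6 CPM. On plate 6 only 1 OCM-low cell reached 10 CPM, the highest of that group, at 1169 CPM.

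The STMN1 values depended on how 1 cell was classed. A plate 4 cell with 21417 CPM of STMN1 had 1 hair cell marker at 10 CPM and GJB6 of 13.9 CPM, and so belonged to neither class. When cells were classed by Ward clustering instead, it fell among the hair cells, and the log2 ratio of STMN1 became 1.44 for ATOH1-positive against ATOH1-negative hair cells, 2.88 for OCM-low against OCM-high hair cells and -0.77 for ATOH1-negative hair cells against supporting cells. With the same clusters and without that cell the ratios were 2.91, 0.69 and -2.23.

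TAGLN3, a calponin-family gene whose actin-binding product is known from neurons, was found mainly in ATOH1-positive hair cells. Its plate means there were 48.7, 121.3, 33.7, 127.7 and 184.1 CPM on plates 2 to 6, a mean of 103.1 ± 61.8 CPM, and the gene was at 10 CPM in 14 of 47 cells (29.8%, 17.3 to 44.9%), 2 or 3 on each plate. These 14 cells ran from 12.7 to 1607 CPM, and without the highest of them the mean over cells was 76.4 instead of 108.95 CPM. Elsewhere TAGLN3 had 0 counts in the 44 OCM-low cells and in the 28 OCM-middle cells. With the limit set at 3 cells of a group, this allows shares of up to 6.82% and 10.7%. These are shares of cells with a count, not of cells expressing the gene. In the OCM-high group 2 of 49 cells held it, both on plate 6, at 162.1 and 18.5 CPM, and in supporting cells there was 1 count in 89 cells.

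The lowest plate of the ATOH1-positive cells, 33.7 CPM, was above the highest plate of the ATOH1-negative cells, 7.85 CPM. The log2 ratio between them was 5.34 ± 1.14, higher on 5 of 5 plates. Against OCM-low cells, which are all at 0, summed counts gave a 629-fold higher level with 3 counts over the group as the floor. Reads are not independent molecules and few cells held the gene, so this is no lower limit on the difference. Against supporting cells, where it rests on a single count, the ratio of summed counts was 3402, with a counting interval of 610 to 134405. Its size cannot be set beside the values at the floor. Between OCM-high and OCM-low cells the value at the same floor was 25.3-fold, higher in the former, but this rested on the 2 cells of plate 6. The ratio of ATOH1-negative hair cells to supporting cells rested on them too: the log2 value was 1.32 ± 1.43, and -0.05 without plate 6.

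TUBB3, the beta-tubulin isotype used as a marker of young neurons, was low but separated hair cells from supporting cells. Its plate means in ATOH1-positive hair cells were 19.3, 24.1, 15.7, 12.5 and 16.6 CPM, a mean of 17.6 ± 4.34 CPM. In ATOH1-negative hair cells they were 2.54, 11.5, 4.54, 3.25 and 7.55 CPM, a mean of 5.88 ± 3.68 CPM. The plate ranges did not overlap, and the log2 ratio was 1.44 ± 0.62, higher on 5 of 5 plates. The share of cells at 10 CPM was 42.6% (20 of 47, 28.3 to 57.8%) in ATOH1-positive cells, against 16.5% (10.4 to 24.4%) of ATOH1-negative cells. After thinning, the share with at least 1 count of TUBB3 was 31.9% in ATOH1-positive cells and 4.55%, 17.9% and 14.3% in OCM-low, OCM-middle and OCM-high cells.

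By OCM level, TUBB3 levels were not separated. The OCM-middle plates were 3.32, 35.6, 0, 0.276 and 9.75 CPM, the OCM-high plates 0, 6.86, 6.25, 7.92 and 5.71 CPM, and the OCM-low plates 4.83, 2.15, 4.92, 0.308 and 8.03 CPM. All 3 ranges overlapped, and OCM-low cells were higher than OCM-high cells on 2 of 5 plates. All 89 supporting cells had 0 counts of TUBB3, which allows a share of cells with a count of up to 3.37%. With 3 counts over the supporting cells as the floor, summed counts gave a level 180-fold higher in ATOH1-positive and 59.6-fold higher in ATOH1-negative hair cells. Since reads are not independent molecules, these are no lower limits on the difference.

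Among ATOH1-positive cells, more of those with TUBB3 held neuron markers. Of the 14 neuron markers listed, 10 are in the files, and 2 or more of them were at 10 CPM in 11 of the 20 ATOH1-positive cells with TUBB3 and in 5 of the 27 without it. In the OCM-high group the counts were 6 of 10 with TUBB3 and 23 of 39 without it. They were 1 of 5 and 6 of 23 in the OCM-middle group, and 1 of 5 and 5 of 39 in the OCM-low group. Within ATOH1-positive cells r of TUBB3 with the number of detected genes was 0.27, and the part of depth in these counts was not tested. Over the groups, 2 or more neuron markers were found in 16 of 47 ATOH1-positive, 6 of 44 OCM-low, 7 of 28 OCM-middle, 29 of 49 OCM-high and 4 of 89 supporting cells, with summed levels running from 0 to 1304, 764, 429, 1554 and 1430 CPM. When cells with 2 or more neuron or glial markers were left out, the TUBB3 log2 ratio of ATOH1-positive to ATOH1-negative hair cells was 0.57 ± 1.33. That value came from 28 and 70 cells. The part of these markers in the result was not tested.

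**Figure D2:**
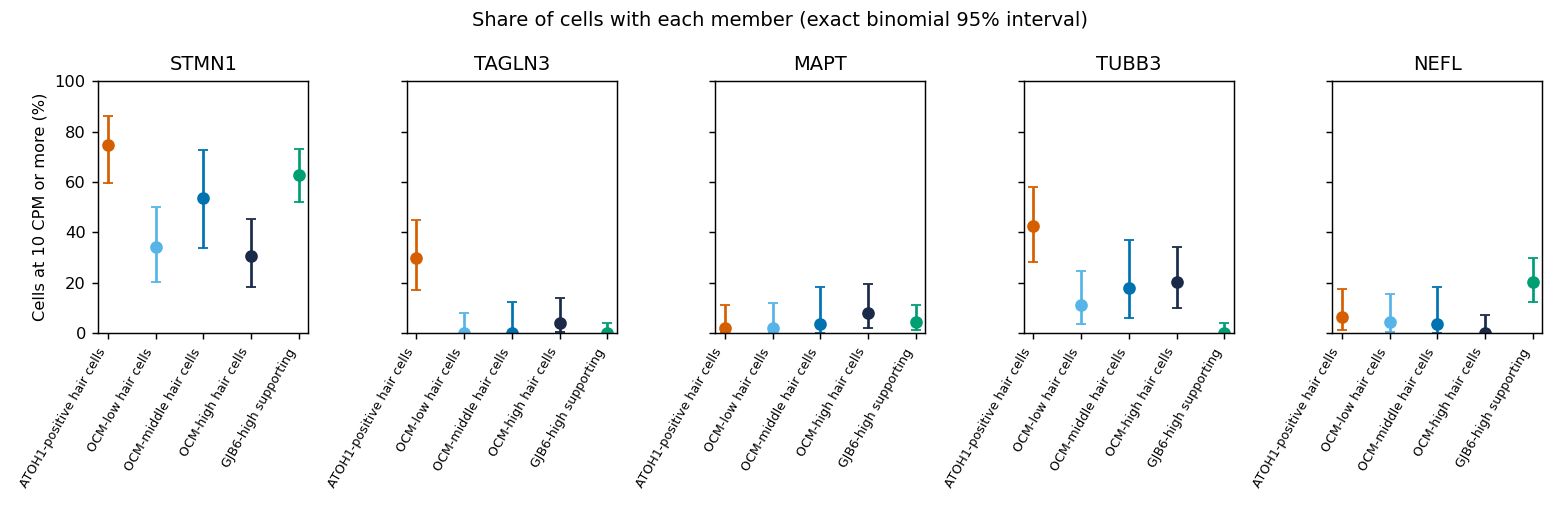
Share of cells at 10 CPM or more, in percent on the vertical axis, for each of the 5 genes and 5 cell groups, with exact binomial 95% intervals as vertical lines. The STMN1 share is 74.5% in ATOH1-positive and 62.9% in supporting cells, the TAGLN3 share is 29.8% in ATOH1-positive cells and near 0 elsewhere, and the NEFL share is highest in supporting cells at 20.2%.

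NEFL, the gene of the neurofilament light chain, was a supporting cell gene by level. Its plate means in supporting cells were 165.9, 92.7, 19.4, 64.8 and 337 CPM, a mean of 136.04 ± 124.5 CPM. It was at 10 CPM in 18 of 89 supporting cells (20.2%, 12.4 to 30.07%), with 6, 1, 2, 4 and 5 such cells on plates 2 to 6. Those 18 cells ran from 45.6 to 1554 CPM with a median of 456 CPM, so the gene was at a high level in a minority of cells and at or near 0 in the rest.

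In hair cells NEFL was found in few cells. The ATOH1-positive plates were 0, 0, 0, 0.309 and 89.2 CPM, and all 3 cells at 10 CPM were on plate 6; 1 of them, at 974 CPM, held 83.9% of the group's summed level. The OCM-low plates were 27.3, 0, 0, 52.7 and 0 CPM from 2 of 44 cells, and 1 of 28 OCM-middle cells held the gene. OCM-high cells had 1 count among 49 cells, and the ratio of summed counts of OCM-low to OCM-high cells was 481, with a counting interval of 85.9 to 19063. That ratio rests on 2 cells against 1 count: OCM-low cells were higher on 2 of 5 plates, and the difference of mean log2(CPM + 1) was 0.30. ATOH1-negative hair cells were lower than supporting cells on 5 of 5 plates, by a log2 ratio of -3.89 ± 1.75, and ATOH1-positive hair cells were also lower on 5 of 5 plates, by -2.86 ± 2.14. The log2 ratio of ATOH1-positive to ATOH1-negative hair cells, 1.03 ± 2.86, was higher on 1 of 5 plates and was -3.002 without plate 6.

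Other markers moved with NEFL inside the supporting cells. At least 2 cell cycle genes were at 10 CPM in 16 of the 18 NEFL cells and in 39 of the 71 others. At least 1 glial marker was found in 13 of 18 against 35 of 71, and at least 1 neuron marker in 12 of 18 against 29 of 71. Over the whole glial list, 8 of 8 genes are in the files, its summed level in supporting cells ran from 0 to 1367 CPM with a mean of 176.9 CPM, and in the hair cell groups the means were 19.1 to 30.1 CPM. Of this list CNP was at 10 CPM in 33.7% of supporting cells and MBP in 24.7%. Without cells carrying 2 or more neuron or glial markers the share of supporting cells with NEFL was 12.1%, and with cells of at least 2000 genes and 100000 counts only, of which 38 supporting cells remained, it was 34.2%. The part of these markers and of depth was not tested.

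MAPT, the gene of tau, which stabilises axonal microtubules, gave no group that stood apart. Its plate means were 0, 32.02, 8.77, 7.94 and 0 CPM in supporting cells, 3.36, 10.7, 1.95, 0.496 and 5.87 CPM in OCM-high cells and 0, 0.440, 0.210, 4.94 and 0.211 CPM in ATOH1-positive cells. It reached 10 CPM in 4 of 89 supporting, 4 of 49 OCM-high, 1 of 44 OCM-low, 1 of 28 OCM-middle and 1 of 47 ATOH1-positive cells. All ranges overlapped, and 1 supporting cell held 46.1% of the summed level of that group. OCM-low cells were lower than OCM-high cells on 5 of 5 plates, by a log2 ratio of -1.20 ± 0.97, with 1 cell at 10 CPM on the OCM-low side and 4 on the OCM-high side. The other log2 ratios were -0.70 ± 1.85 for ATOH1-positive against ATOH1-negative hair cells and -1.61 ± 2.33 for ATOH1-negative hair cells against supporting cells.

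**Figure D3:**
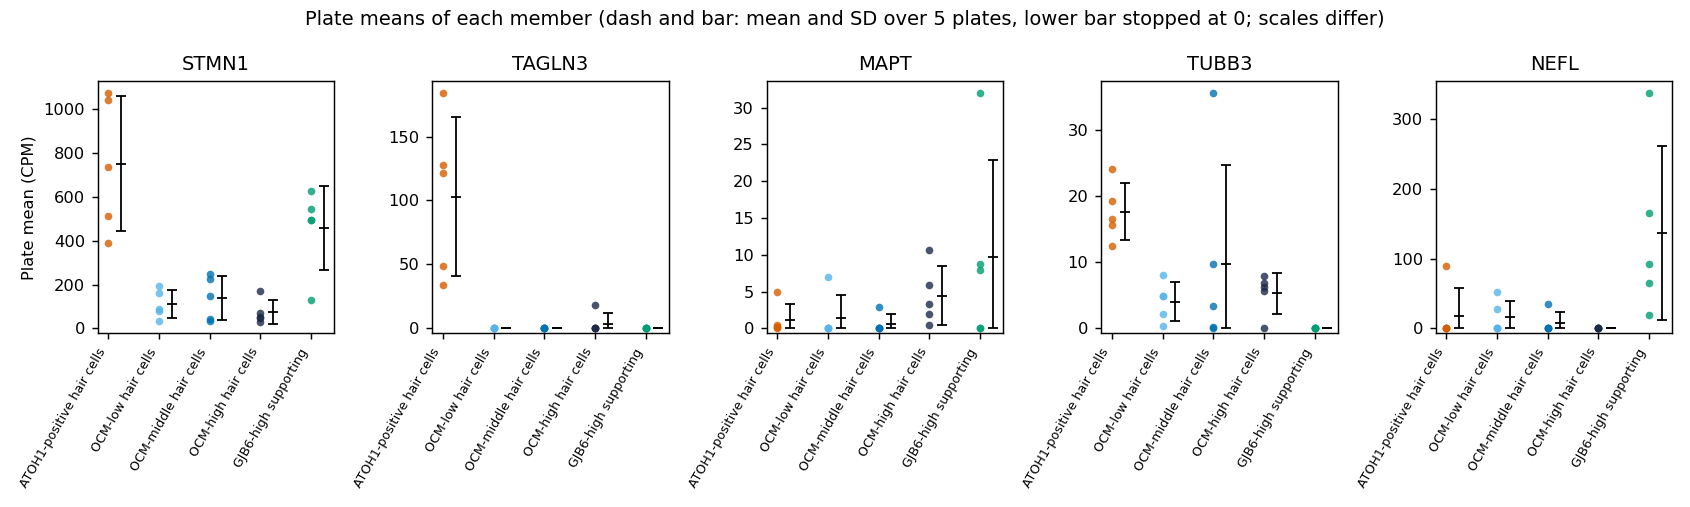
Plate means in CPM on the vertical axis for each of the 5 genes, with 1 point per plate for each cell group and the mean and SD over 5 plates (lower bar stopped at 0); the vertical scale differs between genes. The ATOH1-positive points lie above all OCM-low, OCM-middle and OCM-high points for STMN1 and TAGLN3, and single plates stand out for NEFL and MAPT.

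Ordered by level, STMN1 ran from ATOH1-positive hair cells through supporting, OCM-middle and OCM-low to OCM-high hair cells, and no neighbours in that order were separated by their plates. For TAGLN3 the ATOH1-positive cells were separated from the next group, the OCM-high cells. For TUBB3 the order was ATOH1-positive, OCM-middle, OCM-high, OCM-low and supporting cells, and only the last step was free of overlap. Plate 4 of the OCM-middle cells and plate 2 of the OCM-high cells were at 0, as were the supporting plates. No neighbours were separated for NEFL, which ran from supporting cells to ATOH1-positive, OCM-low, OCM-middle and OCM-high hair cells, or for MAPT.

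Read as a set, 4 of the 5 genes (STMN1, TAGLN3, TUBB3 and NEFL) were 2-fold or more higher in ATOH1-positive than in ATOH1-negative hair cells, beside 12.9% of the 10677 measured genes, and 0 were 2-fold or more lower, beside 16.3%. STMN1, TAGLN3 and TUBB3 were also higher on every plate, as were 2.31% of genes, while NEFL was higher on 1 plate and lower without it. The median log2 ratio of the 5 was 1.44, with medians within single plates from 1.00 to 2.36 (SD 0.57), and that of all genes -0.04. For OCM-low against OCM-high cells 1 gene (NEFL) was 2-fold higher, beside 19.1% of genes, and 2 (TAGLN3 and MAPT) were lower, beside 21.1%. The median was -0.33 for the set and -0.02 for all genes. That of the set lay below its medians within single plates, which ran from -0.29 to 1.74 (SD 0.82). For ATOH1-negative hair cells against supporting cells 2 (TAGLN3 and TUBB3) were higher, beside 28.5% of genes, and 3 were lower, beside 26.7%. The medians were -1.61 for the set, with single plates from -2.38 to 2.15 (SD 1.90), and 0.08 for all genes. ATOH1-positive hair cells share cells with these comparisons. Against supporting cells 2 of the 5 (TAGLN3 and TUBB3) were 2-fold higher in them, beside 26.9% of genes, and 2 (NEFL and MAPT) lower, beside 27.7%. Against OCM-low cells 3 (STMN1, TAGLN3 and TUBB3) were higher, beside 21.4%, and 0 lower, beside 15.5%. The members were chosen on these contrasts, so these shares are printed for scale only.

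STMN1 and TAGLN3 were highest in the hair cells with the most ATOH1 and lowest in those with 0 counts of it. The order of the 2 ranges between them, split at 10 CPM, depended on the measure. Among the 24 hair cells with ATOH1 of 10 to 50 CPM the mean level of STMN1 was 241.7 CPM and 2 cells held TAGLN3. Among the 23 cells with ATOH1 of 50 CPM or more the STMN1 mean was 1303 CPM and 12 cells held TAGLN3. In the hair cells with 0 counts of ATOH1 the STMN1 mean was 88.03 CPM, 38 cells (34.9%, 25.99 to 44.6%) held it at 10 CPM, and 0 held TAGLN3, which allows a share of cells at 10 CPM of up to 2.75%. The 12 hair cells with ATOH1 above 0 and under 10 CPM had a mean STMN1 level of 248.96 CPM, and 2 of them held TAGLN3. Their median STMN1 level was 111.8 CPM, against 131.2 CPM in the cells with ATOH1 of 10 to 50 CPM. The STMN1 shares of these 2 sets were 58.3% and 62.5%, and their mean TAGLN3 levels 15.05 and 30.6 CPM. Across all hair cells (47 ATOH1-positive and 44, 28 and 49 by OCM), Pearson's r of log2(CPM + 1) with ATOH1 was 0.47 for STMN1, 0.52 for TAGLN3 and 0.30 for TUBB3. These values include the difference between the ATOH1 groups. In the same gene order r was 0.29, 0.43 and 0.095 within ATOH1-positive cells and 0.21, 0.24 and 0.15 within ATOH1-negative cells. Hair cells share plates and differ in depth, and r of STMN1 with the number of detected genes was 0.34 across all of them.

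**Figure D4:**
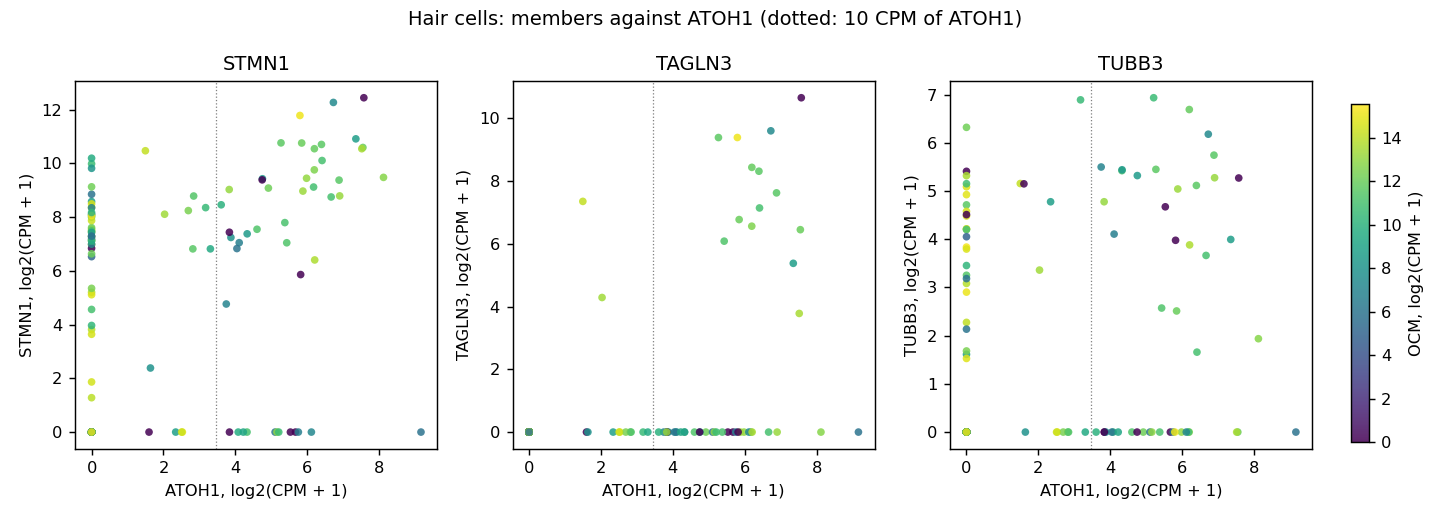
STMN1, TAGLN3 and TUBB3 on the vertical axes against ATOH1 on the horizontal axis, both as log2(CPM + 1), in all hair cells, each a point coloured by OCM. TAGLN3 lies at 0 in all cells without ATOH1 counts, while STMN1 reaches 10 CPM in 38 of them.

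Within the ATOH1-positive cells, the 22 with OCM under 1000 CPM had a mean STMN1 level of 679 CPM over cells, with the gene in 13 cells, and the 25 with more OCM had 833 CPM, with it in 22 cells. TAGLN3 was in 3 of 22 and 11 of 25 of these cells, while its mean level was 110.1 and 107.96 CPM, since the single highest cell lay in the OCM-poor set. STMN1 and TAGLN3 occurred together: all 14 TAGLN3 cells had STMN1, against 21 of the other 33, and the median STMN1 level was 1605 against 131.4 CPM. TUBB3 was in 7 of the 14 TAGLN3 cells and in 13 of the 33 others. Counting members per cell, 25 of 47 ATOH1-positive cells held 2 or more of the 5 genes, and 0 of the cells kept held all 5.

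Cells with TAGLN3 also carried more markers of young hair cells and of the cell cycle. The median number of developing hair cell markers at 10 CPM was 6 in the 14 TAGLN3 cells and 3 in the 33 others. That list includes ATOH1, which defines the group, and RBM24, which was at 10 CPM in 100% of ATOH1-positive cells, so both count in every cell. At least 2 cell cycle genes were found in 12 of 14 against 17 of 33. For STMN1, which is also known from dividing cells, at least 2 cell cycle genes were found in 24 of 35 ATOH1-positive cells with the gene and in 5 of 12 without it. In supporting cells the same counts were 41 of 56 and 14 of 33. The mean summed level of the cell cycle list was 389 CPM in ATOH1-positive, 213.97 CPM in ATOH1-negative and 1142 CPM in supporting cells, and its part in the STMN1 levels was not tested.

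The genes whose pattern over all hair cells was most like the mean of the 5 were HVCN1, a voltage-gated proton channel gene (r = 0.59), TTYH2 (0.55), FXYD6 (0.54), NHLH1, a helix-loop-helix transcription factor of developing neurons (0.53), and DUSP4, a phosphatase of MAP kinases (0.50). They were followed by LOC107051857, MDK and CTHRC1 at 0.49, 0.49 and 0.48, out of 7040 genes compared. Like the r with ATOH1, the values in this paragraph include the difference between the ATOH1 groups. HVCN1 stood at 595 ± 310 CPM in ATOH1-positive and 46.4 ± 82.4 CPM in ATOH1-negative hair cells, and DUSP4 at 109.4 ± 13.8 against 2.32 ± 2.92 CPM. NHLH1 stood at 208.7 ± 72.7 against 8.35 ± 6.61 CPM. For TAGLN3 alone HVCN1, TTYH2 and DUSP4 came first, at 0.75, 0.73 and 0.71, and for STMN1 HVCN1, NHLH1 and GNG13, at 0.56, 0.53 and 0.49. The highest values for TUBB3 (LOC107051857, 0.37), MAPT (ZCCHC8, 0.37) and NEFL (MAPKAPK3, 0.32) were lower than these. STMN1 was at 10 CPM in 80 hair cells, TUBB3 in 40, TAGLN3 in 16, MAPT in 7 and NEFL in 6. TAGLN3 thus had the higher r in fewer cells than TUBB3. The part of sparse counts in these values of r was not tested.

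Between ATOH1-positive and ATOH1-negative hair cells 12.9% of all genes were 2-fold higher and 16.3% lower. The other lists of neuronal cytoskeleton genes had lower medians than the 5 genes. The 5 were chosen with their values in these groups in view, so no conclusion is drawn from that order. Among the other lists the growth cone list had the highest median log2 ratio, 0.86 over 13 measured genes, with 6 of them 2-fold or more higher and 2 lower. MARCKS, a membrane-bound actin regulator, was at 65.5 ± 22.9 against 7.67 ± 3.38 CPM, a log2 ratio of 2.94 ± 0.61, and NCAM1, the neural cell adhesion molecule, at 125.9 ± 56.1 against 37.8 ± 22.0 CPM, both higher on 5 of 5 plates. CTTNBP2, a cortactin-binding protein gene, was lower on 5 of 5 plates by -2.25 ± 1.27. Of 15 tubulins 4 were 2-fold higher and 1 lower, with a median of 0.20; TUBA1A, an alpha-tubulin of growing neurons, stood at 247.6 ± 42.98 against 121.7 ± 24.7 CPM. Reads of near-identical tubulins may be divided between copies, so single tubulin values are uncertain.

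In the same comparison 2 of 28 microtubule-associated protein genes were 2-fold higher and 3 lower, with a median of -0.07, and MAP4 was lower on 5 of 5 plates by -0.80 ± 0.39. Among 25 kinesin and dynein genes 5 were higher and 2 lower, among 19 tubulin-folding, modifying and severing enzymes 4 and 1, and among 16 kinases and phosphatases of tau and stathmin 3 and 2, with medians of 0.04, 0.38 and 0.02. KLC1, a kinesin light chain gene, was lower on 5 of 5 plates by -1.02 ± 0.80. None of 7 intermediate filament genes and neither of 2 further stathmin and transgelin relatives passed 2-fold in either direction. The cell cycle list had 6 higher and 1 lower of 15, with MCM6, a replication helicase subunit, at 62.9 ± 50.02 against 3.93 ± 5.96 CPM.

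Along OCM, where 19.1% of all genes were 2-fold higher and 21.1% lower in OCM-low cells, 7 of 28 microtubule-associated protein genes were higher and 10 lower. MAP1A, a microtubule-binding protein of mature neurons, was at 899.6 ± 642 CPM in OCM-low against 285.7 ± 145.7 CPM in OCM-high cells, and TPPP3, a tubulin polymerisation-promoting protein, at 49.3 ± 17.5 against 0.0502 ± 0.112 CPM. DCLK1, a doublecortin-like kinase, was at 105.2 ± 67.6 against 557 ± 39.3 CPM, lower on 5 of 5 plates. TUBB2B was higher on 5 of 5 plates, at 743 ± 292.7 against 242.9 ± 93.4 CPM, and 5 of 15 tubulins were 2-fold higher and 2 lower. Growth cone genes gave 5 higher and 3 lower of 13, and intermediate filaments 1 higher and 3 lower of 7, with VIM, the vimentin gene, at 188.7 ± 124.2 against 637 ± 150.3 CPM. Kinesins and dynein gave 1 and 5 of 25, tubulin enzymes 4 and 6 of 19, kinases and phosphatases 1 and 5 of 16, and the cell cycle list 4 and 4 of 15.

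Between ATOH1-negative hair cells and supporting cells 28.5% of all genes were 2-fold higher in hair cells and 26.7% lower. Microtubule-associated proteins had 9 of 28 2-fold higher in hair cells and 6 lower, with MAP1B at 731 ± 126.5 against 140.8 ± 79.7 CPM and DCLK1 at 293.1 ± 41.3 against 22.2 ± 25.7 CPM, both higher on 5 of 5 plates. KIF1A, a kinesin that carries synaptic vesicle precursors, was at 238.9 ± 73.97 against 22.2 ± 25.1 CPM, although only 3 of 25 motor genes were higher and 10 lower. Supporting cells held more of the intermediate filaments, with 0 of 7 higher and 5 lower in hair cells. SYNM, the synemin gene, was at 21.5 ± 9.28 CPM in hair cells against 545 ± 260.2 CPM, and CNN3, a calponin related to the transgelins, at 32.4 against 534 CPM, lower on 5 of 5 plates. The 2 measured stathmin and transgelin relatives gave 1 higher and 1 lower. Of the tubulins 2 of 15 were higher and 7 lower, and of the growth cone genes 2 of 13 were higher, BASP1 among them at 158.97 ± 46.98 against 14.9 ± 21.6 CPM, and 7 lower. Tubulin enzymes gave 9 higher and 6 lower of 19, kinases and phosphatases 1 and 6 of 16, and the cell cycle list 2 and 9 of 15, with CCND1, a G1 cyclin, at 6.33 ± 4.92 against 231.1 ± 44.96 CPM.

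**Figure D5:**
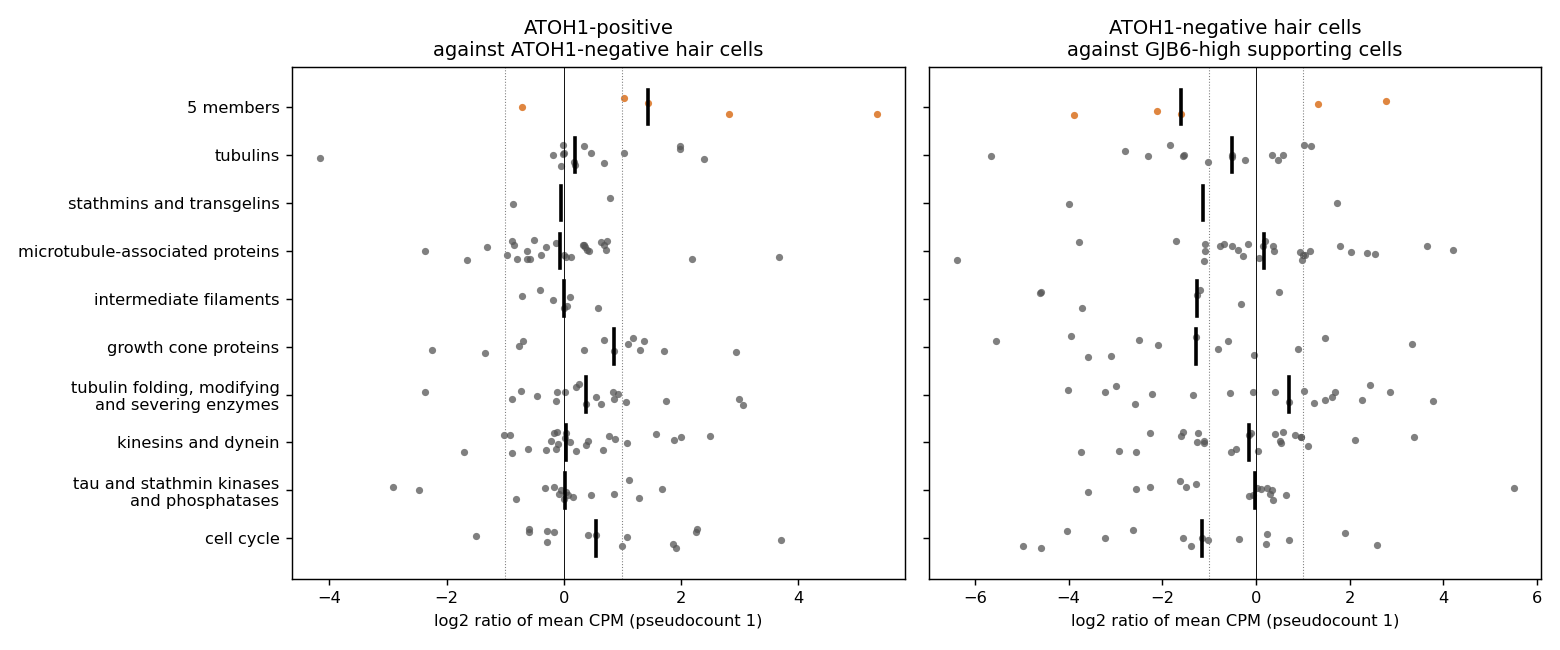
Log2 ratio of plate means on the horizontal axis for the measured genes of each pathway list and for the 5 genes, in ATOH1-positive against ATOH1-negative hair cells and in ATOH1-negative hair cells against supporting cells. Each point is 1 gene, the bar is the list's median, and dotted lines mark a 2-fold difference. In the first comparison the growth cone median lies at 0.86 and that of the 5 genes at 1.44. The 5 genes were chosen with their values in these groups in view, so no conclusion is drawn from that order.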

How the data were processed

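Full-length single-cell RNA libraries were made with oligo-dT priming and 22 cycles of amplification, per the labels' protocols. The authors deposited expected counts per gene and cell, of which 0.822% are fractional. The submitters' processing notes name the aligner STAR, the quantifier RSEM and FastQC. Versions, genome build, annotation and the use of strand are not given here, so no coordinates or sequences are printed.

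The 12 symbols on 2 rows were summed (13643 rows, 13631 symbols), the filter removed 24 of 300 cells, and counts were scaled to CPM. A gene was measured at 10 CPM in at least 5 cells, which 10677 reached. Cells were sorted singly into wells and no doublet caller was run, so whether any well held a doublet was not tested. No pair of cells had an r of log2 CPM above 0.71, so none was treated as a copy. Ratios are log2 of the mean of plate means plus 1 CPM, which understates low genes, and the SD is over 5 plates with at least 3 cells on both sides. No count model was fitted and no p-value computed, since the labels name 1 tissue and no animal. The self-test on simulated data recovered the ratios it was given on average over genes, and only genes above a set mean level were scored. It does not cover genes as low as TUBB3 and MAPT, nor group means carried by 1 cell.

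Named genes were the 5 members, up to 4 genes per list with the largest ratio among those at 10 CPM in at least 20% of cells of the higher side, and the genes most like the members by Pearson's r among those at 10 CPM in at least 10% of hair cells. Marker genes, and cells or shares given beside a result, were named after their values were seen. The members and lists were chosen with earlier results of these data known. Python 3.11.15, numpy 2.4.6, pandas 2.3.3, SciPy 1.17.1 and matplotlib 3.10.9 were used. Alternatives covered filters, thinning, scaling, pseudocount, thresholds, Ward clusters and leaving out plates, marker-bearing cells or highest cells.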

Additional observations from a re-analysis of the deposited data

Results flagged for a closer look

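Plate means were compared within each cell group. In 13 of 22 groups 1 plate lay farther from the others than the limit for 5 values allows. Chance passes that limit in about 1 in 20 groups of normally distributed values. That rate cannot be used here, because in 6 of the 13 the other 4 plates were at 0, which fixes the ratio. Of these plates 11 were the highest. STMN1 was high on plate 6 in OCM-high cells, at 172.8 CPM, and low on plate 2 in supporting cells, at 131.4 CPM. TAGLN3 stood out on plate 6 in OCM-high cells, at 18.1 CPM, and on plate 5 in supporting cells, at 0.138 CPM from 1 count. TUBB3 was high on plate 3 in OCM-middle cells, at 35.6 CPM, and was 0 on plate 2 in OCM-high cells. NEFL was high on plate 6 in ATOH1-positive cells, at 89.2 CPM, on plate 6 in OCM-middle cells, at 35.6 CPM, and on plate 4 in OCM-high cells, at 0.281 CPM. MAPT was high on plate 5 in ATOH1-positive cells, at 4.94 CPM, on plate 3 in OCM-low cells, at 6.95 CPM, on plate 6 in OCM-middle cells, at 2.96 CPM, and on plate 3 in supporting cells, at 32.02 CPM.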

How the results depend on the processing

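No paired analysis was possible because the labels give 1 group of cells and no replicate numbers that pair samples; ratios within plates stand in the report. Leaving out 1 plate at a time gave set medians of 1.41 to 1.81 for ATOH1-positive against ATOH1-negative hair cells, -0.66 to 0.07 for OCM-low against OCM-high cells and -2.003 to -1.06 for ATOH1-negative hair cells against supporting cells. The first median was 0.80 with a pseudocount of 10 CPM and 0.57 without cells carrying 2 or more neuron or glial markers. The last reversed to 1.48 with at least 2000 genes and 100000 counts, where MAPT was 1.61 and the median of the 2 stathmin and transgelin relatives 0.023, and to 0.012, the MAPT value, as a difference of mean log2(CPM + 1). MAPT between OCM levels was 1.48 ± 1.74 without neuron or glial marker cells, a setting that left 36 OCM-low and 16 OCM-high cells. NEFL in ATOH1-positive against ATOH1-negative cells was -1.27 under the stricter filter, -1.59 without marker cells, -3.002 without plate 6 and -0.42 without the highest cell on each side. TAGLN3 in ATOH1-negative hair cells against supporting cells was -0.049 without plate 6.

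The ratios of ATOH1-positive to ATOH1-negative hair cells kept their sign in every setting run for STMN1 (1.44 to 4.09), TAGLN3 (2.23 to 6.42) and TUBB3 (0.57 to 1.81). The lowest TUBB3 value, without cells carrying 2 or more neuron or glial markers, had an SD over plates of 1.33. For ATOH1-positive against ATOH1-negative hair cells the median of all genes was 0.09 with median-of-ratios scaling. It was 0.14 as a difference of mean logs, against -0.04. Leaving out the highest cells, and Ward clusters without the cell highest for STMN1, were chosen after seeing the data. Over single-gene results, 17 moved by more than the SD over plates and 8 reversed. Others shifted within that SD, such as TAGLN3 in ATOH1-negative hair cells against supporting cells, at 0 without marker cells, MAPT in ATOH1-positive against ATOH1-negative cells, at -0.19, and TUBB3 between OCM levels, from -1.11 under the stricter filter to 0.07 with a plate left out. Except for the effect of the STMN1-rich cell on Ward clusters and for settings defined by the cells left out, the cause of these shifts was not tested. Without animals, differences between birds cannot be told apart from those between cells.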

Other observations

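Some single cells carried several of the 5 genes or very high levels of 1 of them. The cell with the highest STMN1 level, 21417 CPM from 10749 counts, lay outside both classes on plate 4 and held 18.2% of the summed STMN1 level of all cells kept. It had 8 cell cycle genes at 10 CPM, 1 hair cell marker and 0 counts of OCM. A plate 3 cell outside the classes had STMN1 at 3234 CPM and TAGLN3 at 237.2 CPM together with ATOH1 at 81.2 CPM, OCM at 10306 CPM, GJB6 at 2837 CPM and 9 hair cell markers. An ATOH1-positive cell of plate 6 held STMN1 at 4930 CPM, TAGLN3 at 774 CPM, TUBB3 at 71.4 CPM and NEFL at 974 CPM, and its GJB6 level was 653 CPM. The OCM-high cell of plate 6 with STMN1 at 1417 CPM also held TAGLN3 at 162.1 CPM and TUBB3 at 34.6 CPM, with ATOH1 at 1.82 CPM.

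ATOH1 itself was at 10 CPM in 11 of the 89 supporting cells. ELAVL4, the gene of an RNA-binding protein of neurons, was at 68.5 ± 34.96 CPM in ATOH1-positive and 12.97 ± 10.3 CPM in ATOH1-negative hair cells. In supporting cells it was at 74.2 ± 32.3 CPM. Over the 8 measured neuron markers the median log2 ratio of ATOH1-positive to ATOH1-negative hair cells was -0.16. ELAVL4 was among 2 that were 2-fold or more higher, beside 12.9% of all genes, and 2 were lower, beside 16.3%.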
